A study of Homo sapiens with 12 samples.

Results

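The markers of breast stem and progenitor cells followed here were 10 genes, CD44, ALDH1A1, ALDH1A3, PROCR, SOX4, SOX9, BMI1, HMGA2, PROM1 and LIN28B. They were taken by symbol from a table of read counts over 29094 RefSeq transcript accessions, in which each of the 10 genes had 1 accession. The counts came from 12 mRNA libraries of MCF10AT, a line of human mammary epithelial cells transformed by HRasG12V, an activated form of the HRAS oncogene. EP300 KD1 and EP300 KD2 were MCF10AT cells that stably expressed different short hairpin RNAs (shRNAs) against EP300, and NS1 and NS2 were MCF10AT cells that expressed a non-silencing control. All 4 groups had been transduced with lentivirus and selected with puromycin, all carried the HRAS oncogene, and each had 3 libraries. The labels do not say which control belongs to which hairpin, so EP300 KD1 was set against NS1 and EP300 KD2 against NS2 by their shared number.

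Stem and progenitor cells of the breast have been defined by proteins on their surface and by enzyme activity. The usual criteria are high CD44 with low CD24, high aldehyde dehydrogenase activity, CD133 (the product of PROM1) and, in mouse mammary gland, the protein C receptor Procr. Transcription and chromatin factors such as SOX4, SOX9, BMI1 and HMGA2, and the RNA-binding protein LIN28B, have been linked to self-renewal or to an undifferentiated state. EP300 encodes a histone acetyltransferase and transcriptional co-activator.

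The 12 libraries held 31396653 to 45606950 counts, of which the 10 markers took 0.149% to 0.184%. Levels are given as CPM, the counts scaled to a common library size, here with the trimmed mean of M-values (TMM), with the SD over the 3 libraries of a group. EP300 itself stood at 107.3 ± 0.884 CPM in EP300 KD1 and 172.0 ± 5.11 CPM in NS1, and at 95.8 ± 3.87 CPM in EP300 KD2 and 174.2 ± 8.14 CPM in NS2. Its log2 fold change was -0.68 ± 0.03 (SE; adjusted p = 2.6e-12) for EP300 KD1 and -0.86 ± 0.04 (adjusted p = 1.1e-13) for EP300 KD2, by edgeR's quasi-likelihood test with Benjamini-Hochberg adjustment over 13424 tested accessions. That test and its threshold of 0.05 are used throughout, and "rose" and "fell" below mean that it was passed. All 10 listed mammary epithelial markers had enough counts to be tested, as had 4 of 8 fibroblast, 4 of 8 endothelial and 2 of 8 leukocyte markers. With EP300 KD1, 8 of the 10 fell and 2 rose (KRT8 and ITGA6), and with EP300 KD2 9 fell and none rose. Over all accessions, 32.3% were lower with EP300 KD1 and 29.9% with EP300 KD2. The 10 summed to 5509.6 to 5564.0 CPM in EP300 KD1 against 7704.7 to 7923.3 CPM in NS1, and to 4712.5 to 4814.4 CPM in EP300 KD2 against 8845.7 to 8963.2 CPM in NS2. The part of this shift in the markers' changes was not tested, and in bulk RNA fewer cells of a type and less RNA per cell cannot be told apart.

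In all, 8 of the 10 markers had enough counts to be tested. With EP300 KD1, 3 rose (HMGA2, PROCR and CD44) and 2 fell (SOX9 and ALDH1A3), which is 62.5% of those tested, against 64.9% of all accessions (32.6% higher and 32.3% lower). With EP300 KD2, 3 rose (HMGA2, PROCR and SOX4) and 4 fell (CD44, SOX9, ALDH1A3 and ALDH1A1), which is 87.5% of those tested, against 57.8% of all accessions (27.9% higher and 29.9% lower). That last split depended on scaling, since 4979 accessions were higher and 3144 lower with library totals alone, and 4630 higher and 3358 lower with upper-quartile factors, against 3744 and 4018 with TMM. The median log2 change of the 8 markers was 0.18 for EP300 KD1 and -0.10 for EP300 KD2, beside medians of -0.006 and -0.002 over all accessions. In all, 5 markers passed the test with both hairpins: HMGA2 and PROCR rose with both, SOX9 and ALDH1A3 fell with both, and CD44 moved in opposite directions. Over all accessions, 32.6% passed with both in the same direction and 11.2% in opposite directions, so a change in either hairpin, shared or not, was common in these libraries.

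**Figure D1:**
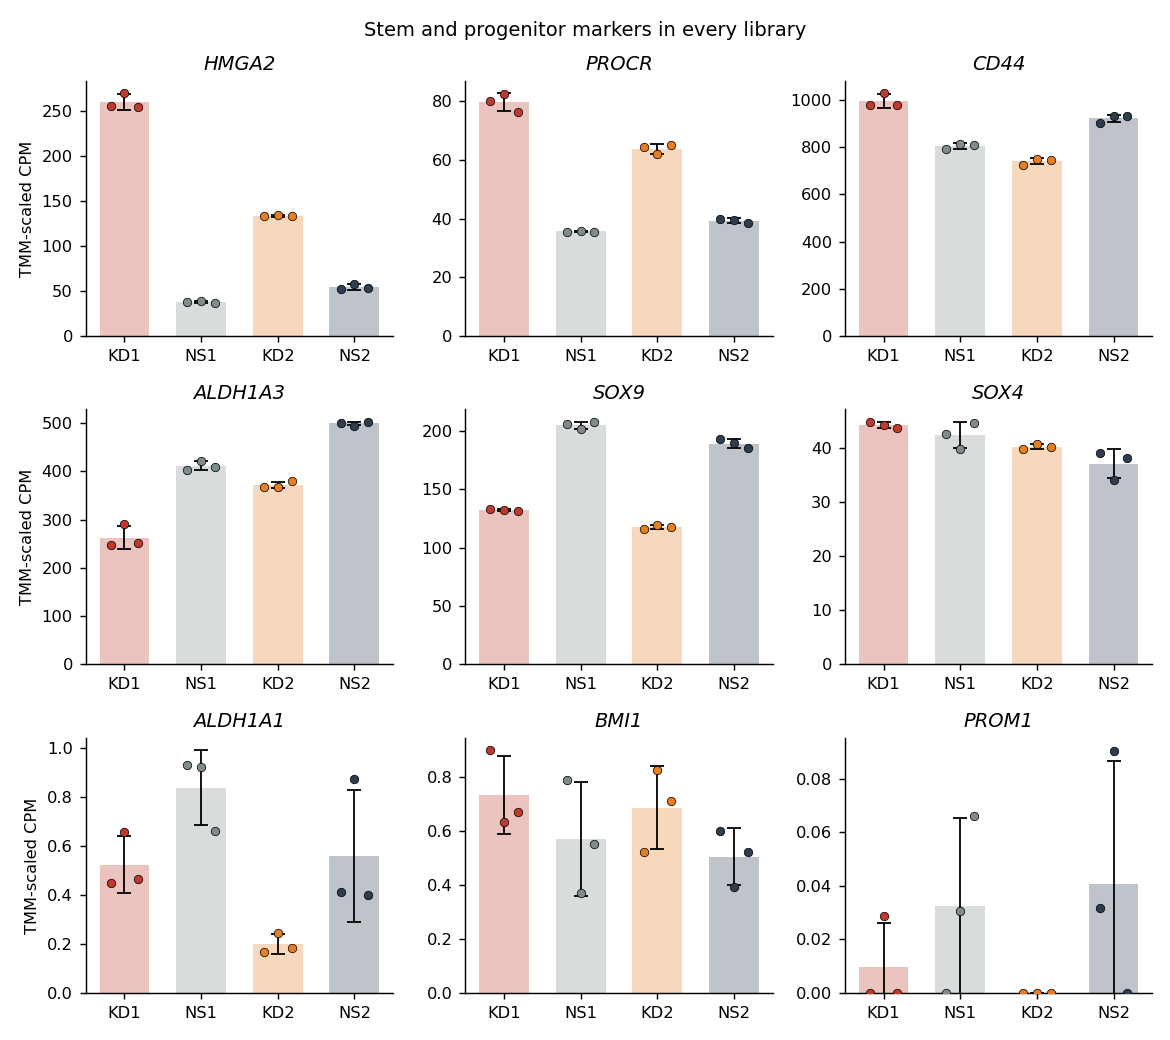
TMM-scaled CPM of 9 markers (LIN28B had no count and is not drawn) in EP300 KD1, NS1, EP300 KD2 and NS2. Points are single libraries, bars are group means and error bars are 1 SD over 3 libraries, cut at 0. HMGA2 and PROCR were higher in every knockdown library than in every control library, SOX9 was lower, and the bottom row holds genes below 1 CPM.

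Levels were compared between genes as CPM per kilobase of the matching GENCODE transcript, which is approximate because the transcript versions may differ. In EP300 KD1 the order was CD44 (545.4 ± 15.8), ALDH1A3 (67 ± 6.02), PROCR (59.1 ± 2.3), HMGA2 (58 ± 1.91), SOX9 (33.7 ± 0.239) and SOX4 (7.56 ± 0.0956). In NS1 it was CD44 (441.0 ± 6.34), ALDH1A3 (104.9 ± 2.29), SOX9 (52.1 ± 0.746), PROCR (26.4 ± 0.105), HMGA2 (8.45 ± 0.295) and SOX4 (7.25 ± 0.418). In EP300 KD2 the order was CD44 (406.1 ± 7.27), ALDH1A3 (94.8 ± 1.75), PROCR (47.3 ± 1.18), SOX9 (29.9 ± 0.486), HMGA2 (29.8 ± 0.128) and SOX4 (6.88 ± 0.0859), and in NS2 it was CD44 (504.9 ± 8.73), ALDH1A3 (127.2 ± 0.949), SOX9 (48.1 ± 0.963), PROCR (29.2 ± 0.549), HMGA2 (12.2 ± 0.68) and SOX4 (6.35 ± 0.457). PROCR thus stood above SOX9 in both knockdown lines and below it in both control lines. The ranges of 1 SD around the means overlapped for ALDH1A3 and PROCR and for PROCR and HMGA2 in EP300 KD1, and for SOX9 and HMGA2 in EP300 KD2. ALDH1A1, BMI1 and PROM1 came last in every group, each below 1 CPM per kilobase, and LIN28B had no count.

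HMGA2, an architectural chromatin protein that binds AT-rich DNA through AT-hooks, rose most of the markers with both hairpins. Its levels were 255.6, 269.5 and 253.9 CPM in EP300 KD1, against 37.3, 39.3 and 36.8 CPM in NS1. In the other set they were 133.0, 133.8 and 132.7 CPM in EP300 KD2, against 52.6, 57.9 and 52.7 CPM in NS2. Every knockdown library stood above every control library, the EP300 KD1 libraries being the highest of the 12 and the NS1 libraries the lowest. HMGA2 rose 6.88-fold with EP300 KD1 (log2 2.78 ± 0.04, SE; adjusted p = 8.6e-21) and 2.45-fold with EP300 KD2 (log2 1.29 ± 0.04; adjusted p = 4.5e-16). Among 11462 accessions with a mean of at least 1 CPM, its fold change ranked 40 from the highest with EP300 KD1 and 144 with EP300 KD2. The response to EP300 KD2 was smaller by 1.49 ± 0.05 on the log2 scale (adjusted p = 7.4e-14 for the difference, which was EP300 KD2 minus EP300 KD1 at -1.49). NS2 also stood 0.53 ± 0.04 above NS1 on the log2 scale (adjusted p = 2.3e-08), and against both controls pooled the log2 changes were 2.52 for EP300 KD1 and 1.55 for EP300 KD2, a difference of -0.96.

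The HMGA2 transcript is the textbook target of the let-7 microRNAs, which pair through their seed with sites in its 3′ untranslated region (UTR). The sequences are shown because LIN28B, another of the markers, blocks let-7 maturation. All let-7 and miR-98 5p sequences in the RefSeq table (GRCh38.p14) shared 1 seed, bases 2 to 8, written in capitals in let-7a:
hsa-let-7a-5p: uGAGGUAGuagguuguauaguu
A search of the GENCODE v29 transcript ENST00000403681.6 on GRCh38 for the perfect seed match CTACCTC found 4 sites in the 3′ UTR of HMGA2, all on the plus strand, with the match in capitals:
chr12:65963296-65963320: gcgccaacgttcgatttCTACCTCa
chr12:65964531-65964555: atccccactactcaataCTACCTCt
chr12:65964943-65964967: aattgacttgcaaagacCTACCTCc
chr12:65965796-65965820: acaatcaaaacacactaCTACCTCt
The LIN28B transcript also held 4 such sites in its 3′ UTR, and the 1 transcript searched for each of the other 8 markers held 0 there. Other transcripts were not searched, and that of CD44 covers 18.2% of the gene's exonic bases. A match describes the letters and not regulation in these cells, and mature microRNAs were not measured by this mRNA protocol.

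The HMGA2 values rest on 1 accession, NM_003483 (chromosome 12, 65824460 to 65966291, plus strand), whose matching transcript holds 4473 of the gene's 15403 exonic bases. It overlaps the transcribed pseudogene RPSAP52, which had its own accession and at most 296 counts in a library. RPSAP52 stood at 7.21 CPM in EP300 KD1 and 3.92 CPM in NS1, and at 6.22 CPM in EP300 KD2 and 3.32 CPM in NS2. It rose by 0.87 ± 0.14 on the log2 scale with EP300 KD1 (adjusted p = 1.6e-05) and by 0.91 ± 0.14 with EP300 KD2 (adjusted p = 2e-05). The counting strand is not given in the sources used here, so reads of the overlapping genes may not be fully separated.

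LIN28B had 0 counts in all 12 libraries, which allows at most 3 counts, or 0.0658 to 0.0956 CPM, in a single library. Its paralogue LIN28A also had no count. Mature let-7 was not measured in these libraries. Of 15 tested genes of the LIN28 and let-7 axis, which holds the microRNA processing machinery and other known let-7 targets, 11 rose and 4 fell with EP300 KD1 (median log2 change 0.28), and 9 rose and 3 fell with EP300 KD2 (median 0.12). Of these, 6 rose with both hairpins, none fell with both, and 6 moved in opposite directions. Over all accessions, 32.6% were higher and 32.3% lower with EP300 KD1, and 27.9% and 29.9% with EP300 KD2. With both hairpins, 32.6% of all accessions passed in the same direction and 11.2% in opposite directions. HMGA1, the paralogue of HMGA2, rose with both, to 1517.4 ± 91.5 CPM in EP300 KD1 against 1215.1 ± 22.6 CPM in NS1 (log2 0.32 ± 0.04, adjusted p = 2e-07) and to 1795.0 ± 73.4 CPM in EP300 KD2 against 1326.1 ± 35.6 CPM in NS2 (log2 0.44 ± 0.04, adjusted p = 3e-09). IGF2BP2, an mRNA-binding protein and let-7 target, rose with both (log2 0.47 ± 0.03 and 0.21 ± 0.03, adjusted p = 4e-11 and 4.6e-06 for EP300 KD1 and EP300 KD2), as did the Argonaute gene AGO1 (0.46 ± 0.03 and 0.29 ± 0.03, adjusted p = 3.1e-10 and 3.7e-07). IGF2BP3 rose with EP300 KD1 (log2 0.47 ± 0.03, adjusted p = 2.8e-10) and had a log2 change of -0.07 ± 0.03 with EP300 KD2 (adjusted p = 0.069). TUT4, a uridylyltransferase that tags let-7 precursors, rose with EP300 KD1 (log2 0.49 ± 0.03, adjusted p = 1e-11) and fell with EP300 KD2 (log2 -0.12 ± 0.03, adjusted p = 0.0013).

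PROCR, the endothelial protein C receptor, was the other marker that rose with both hairpins. Its levels were 80.1, 82.5 and 76.4 CPM in EP300 KD1, against 35.6, 35.8 and 35.6 CPM in NS1. They were 64.3, 61.9 and 65 CPM in EP300 KD2, against 39.9, 39.6 and 38.5 CPM in NS2. The lowest knockdown library lay well above the highest control library, the control libraries spanning 35.6 to 39.9 CPM. PROCR rose 2.23-fold with EP300 KD1 (log2 1.16 ± 0.03, adjusted p = 5.7e-16) and 1.62-fold with EP300 KD2 (log2 0.70 ± 0.03, adjusted p = 2.2e-12). Its fold change ranked 398 and 445 from the highest among the 11462 accessions. The difference between the hairpins was -0.46 ± 0.05 (adjusted p = 2.2e-07), and NS2 stood 0.14 ± 0.04 above NS1 (adjusted p = 0.007), both on the log2 scale.

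PROCR (NM_006404, plus strand of chromosome 20) overlaps the readthrough gene MMP24-AS1-EDEM2, which had no accession of its own among the counts. The RefSeq promoter window, 250 bases before to 50 after the start site on GRCh38.p14, is shown for PROCR as a gene that rose with both hairpins. HMGA2 and SOX9 had no window in the promoter set used. The annotated start of the PROCR gene, 35171096, lies upstream of the window shown. Capitals mark matches, on either strand, to 5 motifs that were searched, the AP-1 site TGANTCA, the E-box CAGGTG, the GC box GGGCGG, the CCAAT box CCAAT and the TATA box TATAAA. Some matches can overlap one another.
PROCR chr20:35171822-35172121, plus strand: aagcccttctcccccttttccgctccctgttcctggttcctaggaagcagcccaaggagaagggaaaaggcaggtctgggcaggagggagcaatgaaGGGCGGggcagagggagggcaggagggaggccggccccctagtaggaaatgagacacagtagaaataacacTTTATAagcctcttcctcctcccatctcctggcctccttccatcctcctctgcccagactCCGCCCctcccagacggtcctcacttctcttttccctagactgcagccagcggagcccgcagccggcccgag
The window held 2 GC boxes and 1 TATA box, the TATA box on the reverse strand, and no match to the AP-1 site, the E-box or the CCAAT box. Of 35116 promoter windows of the same length, 45% held a GC box and 11.5% a TATA box.

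Of 6 tested genes of the protein C and coagulation system, 3 rose and 1 fell with EP300 KD1 (median log2 change 0.13), and 3 rose and 3 fell with EP300 KD2 (median -0.04). The shares over all accessions were 32.6% higher and 32.3% lower with EP300 KD1, and 27.9% and 29.9% with EP300 KD2. PROS1, which encodes protein S, the cofactor of activated protein C, stood at 8.51 ± 0.642 CPM in EP300 KD1 and 1.96 ± 0.116 CPM in NS1 (log2 2.12 ± 0.10, adjusted p = 1.2e-12). It stood at 5.54 ± 0.12 CPM in EP300 KD2 and 0.655 ± 0.112 CPM in NS2 (log2 3.07 ± 0.13, adjusted p = 1.7e-13), and NS2 was 1.57 lower than NS1 on the log2 scale. F3, the tissue factor gene, rose with both hairpins (log2 0.17 ± 0.03 and 0.26 ± 0.03, adjusted p = 6.2e-05 and 5.9e-07). F2RL1, a protease-activated receptor, fell with both (log2 -0.17 ± 0.04 and -0.39 ± 0.04, adjusted p = 0.00064 and 3.8e-08). TFPI, an inhibitor of the tissue factor pathway, fell with EP300 KD2 (log2 -0.35 ± 0.03, adjusted p = 3.6e-09) and had a log2 change of -0.01 ± 0.03 with EP300 KD1 (adjusted p = 0.76). PROC, the gene of protein C itself, was among the 6 genes of this list with a mean under 0.1 CPM.

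CD44, the hyaluronan receptor, was the most abundant marker and moved in opposite directions. Its levels were 977.6, 1028.5 and 979.9 CPM in EP300 KD1, against 791.5, 812.4 and 810.6 CPM in NS1. They were 725.9, 750.4 and 747.1 CPM in EP300 KD2, against 903.0, 930.0 and 931.2 CPM in NS2. The groups of each pair did not overlap, EP300 KD1 being the highest of the 4 groups and EP300 KD2 the lowest. CD44 rose with EP300 KD1 (log2 0.31 ± 0.02, adjusted p = 1.4e-09) and fell with EP300 KD2 (log2 -0.31 ± 0.02, adjusted p = 1.2e-09). The difference between the hairpins was -0.62 ± 0.03 on the log2 scale (adjusted p = 2.6e-11). NS2 stood 0.20 ± 0.02 above NS1 (adjusted p = 6.1e-06), and against both controls pooled the log2 changes were 0.21 and -0.22, so the opposite signs did not rest on the choice of control.

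**Figure D2:**
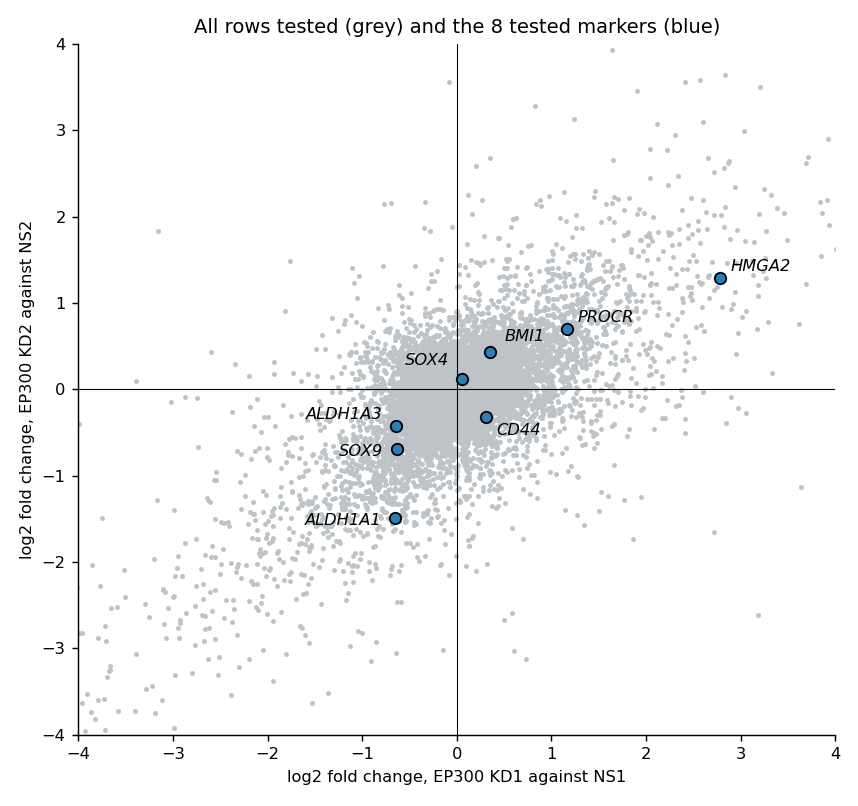
Log2 fold change with EP300 KD1 (horizontal axis) and EP300 KD2 (vertical axis) for all 13424 tested accessions in grey and the 8 tested markers in blue. HMGA2 and PROCR lie in the upper right, ALDH1A1, ALDH1A3 and SOX9 in the lower left, and CD44 in the lower right. The axes end at 4 in either direction, and 80 accessions lie beyond them.

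The CD44 accession, NM_001202557 (chromosome 11, 35139171 to 35232402, plus strand), matches a transcript of 9 exons that covers 18.2% of the gene's exonic bases. Reads from other exons, such as the variably spliced ones, are not counted here. The promoter window is shown for CD44 as the marker that moved in opposite directions.
CD44 chr11:35138921-35139220, plus strand: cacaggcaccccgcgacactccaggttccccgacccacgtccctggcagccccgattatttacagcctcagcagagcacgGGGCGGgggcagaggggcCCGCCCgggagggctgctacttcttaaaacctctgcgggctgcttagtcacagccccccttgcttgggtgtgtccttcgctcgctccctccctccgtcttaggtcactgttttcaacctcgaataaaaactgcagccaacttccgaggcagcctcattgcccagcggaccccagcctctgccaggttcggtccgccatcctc
It held 2 GC boxes and no match to the other 4 motifs.

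CD24, the surface protein that is low in CD44-high stem-like cells, had 10 to 40 counts per library in 1 of its 3 accessions and none in the others. Symbols with several accessions held 0.934% of all counts in this table, so the level of CD24 is uncertain. CD24 stood at 0.415 ± 0.165 CPM in EP300 KD1 and 0.982 ± 0.116 CPM in NS1 (log2 -1.22 ± 0.25, adjusted p = 0.00036), and at 0.472 ± 0.0381 CPM in EP300 KD2 and 0.412 ± 0.116 CPM in NS2 (log2 0.19 ± 0.29, adjusted p = 0.61). The ratio of CD44 to CD24 counts was 2769.7, 1708.4 and 3375.2 in EP300 KD1, against 713.8, 852.5 and 918.2 in NS1. It was 1695.3, 1517.4 and 1512.9 in EP300 KD2, against 1681.1, 2377.2 and 3029.6 in NS2. The groups did not overlap in the first pair and did in the second. A two-sided exact permutation test gave p = 0.1 for the first pair, the smallest that 3 against 3 libraries allow, and p = 0.2 for the second. The exact permutation test also gave p = 0.1 between the controls NS2 and NS1, whose ratios averaged 2362.6 and 828.2.

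Of 21 tested genes of hyaluronan metabolism and CD44 partners, 11 rose and 5 fell with EP300 KD1 (median log2 change 0.06), and 9 rose and 10 fell with EP300 KD2 (median -0.12). Of these, 7 rose with both, 4 fell with both and 5 moved in opposite directions. Over all accessions, 32.6% were higher and 32.3% lower with EP300 KD1, and 27.9% and 29.9% with EP300 KD2. With both hairpins, 32.6% of all accessions passed in the same direction and 11.2% in opposite directions. TNFAIP6, which transfers heavy chains onto hyaluronan, stood at 22.9 ± 2.15 CPM in EP300 KD1 and 0.343 ± 0.0306 CPM in NS1 (log2 6.06 ± 0.15, adjusted p = 2.9e-17), and at 2.79 ± 0.134 CPM in EP300 KD2 and 0.752 ± 0.214 CPM in NS2 (log2 1.89 ± 0.16, adjusted p = 4.6e-09). VCAN, the hyaluronan-binding proteoglycan versican, rose to 178.6 ± 1.34 CPM in EP300 KD1 against 51.2 ± 1.6 CPM in NS1, and to 134.8 ± 2.63 CPM in EP300 KD2 against 64.9 ± 0.844 CPM in NS2 (log2 1.80 ± 0.03 and 1.05 ± 0.03, adjusted p = 5.8e-20 and 1.8e-16). CEMIP2, a cell-surface hyaluronidase, and RDX, which encodes radixin and links CD44 to actin, also rose with both hairpins, by 1.09 ± 0.03 and 0.64 ± 0.02 on the log2 scale with EP300 KD1 and by 0.42 ± 0.03 and 0.23 ± 0.02 with EP300 KD2. ESRP1 and ESRP2, splicing factors that favour the epithelial variant exons of CD44, fell with both, ESRP1 by a log2 change of -0.37 ± 0.02 with EP300 KD1 and -0.47 ± 0.02 with EP300 KD2, and ESRP2 by -0.25 ± 0.03 and -0.16 ± 0.03. The deposited counts do not resolve CD44 exons, so CD44 splicing was not analysed here.

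ALDH1A3 and ALDH1A1 encode retinaldehyde dehydrogenases, which make retinoic acid and contribute to the aldehyde dehydrogenase activity used to sort breast stem-like cells. ALDH1A3 levels were 248.0, 290.1 and 250.5 CPM in EP300 KD1, against 403.7, 421.4 and 409.5 CPM in NS1. They were 367.5, 368.3 and 379.8 CPM in EP300 KD2, against 501.1, 494.8 and 501.5 CPM in NS2. Every knockdown library lay below every control library, with EP300 KD1 lowest. ALDH1A3 fell to 63.9% ± 5.74 of NS1 in EP300 KD1 (log2 -0.65 ± 0.04, adjusted p = 6.8e-11) and to 74.5% ± 1.38 of NS2 in EP300 KD2 (log2 -0.42 ± 0.04, adjusted p = 2.9e-08). The difference between the hairpins was 0.22 ± 0.06 on the log2 scale (adjusted p = 0.0034) and became 0.50 with both controls pooled, where NS2 stood 0.28 ± 0.04 above NS1 (adjusted p = 4e-05).

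The promoter window is shown for ALDH1A3 (NM_000693) as a gene that fell with both hairpins.
ALDH1A3 chr15:100879581-100879880, plus strand: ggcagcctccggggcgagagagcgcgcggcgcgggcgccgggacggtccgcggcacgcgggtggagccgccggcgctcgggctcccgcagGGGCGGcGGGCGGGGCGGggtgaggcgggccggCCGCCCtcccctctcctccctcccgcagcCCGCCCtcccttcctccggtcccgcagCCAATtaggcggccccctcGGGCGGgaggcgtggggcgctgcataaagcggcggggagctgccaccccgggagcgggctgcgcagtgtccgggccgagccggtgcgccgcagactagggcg
It held 6 GC boxes and 1 CCAAT box, a motif found in 34.6% of all windows, with no AP-1 site, E-box or TATA box.

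ALDH1A1 was scarce, with 6 to 32 counts per library. Its levels were 0.449, 0.659 and 0.465 CPM in EP300 KD1, against 0.934, 0.922 and 0.662 CPM in NS1. They were 0.167, 0.247 and 0.185 CPM in EP300 KD2, against 0.411, 0.873 and 0.4 CPM in NS2. No knockdown library reached the level of its controls, although in the first pair the nearest libraries were 0.659 and 0.662 CPM. ALDH1A1 fell with EP300 KD2 (log2 -1.49 ± 0.37, adjusted p = 0.0018) and had a log2 change of -0.65 ± 0.28 with EP300 KD1 (adjusted p = 0.052, from 0.019 to 0.21 over the processing alternatives). The difference between the hairpins was -0.84 ± 0.47 (adjusted p = 0.15, 95% interval -1.82 to 0.14).

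Of the other 13 tested aldehyde dehydrogenase genes, 6 rose and 7 fell with EP300 KD1 (median log2 change -0.16), and 4 rose and 6 fell with EP300 KD2 (median -0.17). The shares over all accessions were 32.6% higher and 32.3% lower with EP300 KD1, and 27.9% and 29.9% with EP300 KD2. The fatty and aromatic aldehyde dehydrogenases of the ALDH3 family fell with both hairpins. ALDH3A1 stood at 21.9 ± 2.19 CPM in EP300 KD1 and 42.5 ± 2.53 CPM in NS1, and at 22.1 ± 0.647 CPM in EP300 KD2 and 57.6 ± 2.61 CPM in NS2 (log2 -0.95 ± 0.06 and -1.39 ± 0.06, adjusted p = 4.2e-11 and 1.1e-13). The log2 changes with EP300 KD1 and EP300 KD2 were -0.48 ± 0.02 and -0.53 ± 0.02 for ALDH3A2, -0.55 ± 0.04 and -0.99 ± 0.05 for ALDH3B1, and -1.49 ± 0.09 and -1.58 ± 0.10 for ALDH3B2. ALDH1A2, the remaining retinaldehyde dehydrogenase of the ALDH1A family, had 26 counts over 12 libraries and was not tested.

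Of 14 tested genes of retinoic acid metabolism and signalling, 4 rose and 7 fell with EP300 KD1 (median log2 change -0.18), and 2 rose and 11 fell with EP300 KD2 (median -0.57). Of these, 7 fell with both, 1 rose with both and 2 moved in opposite directions. Over all accessions, 32.6% were higher and 32.3% lower with EP300 KD1, and 27.9% and 29.9% with EP300 KD2. With both hairpins, 32.6% of all accessions passed in the same direction and 11.2% in opposite directions. RARRES1, a gene induced by retinoids, stood at 23.1 ± 0.779 CPM in EP300 KD1 and 157.4 ± 7.03 CPM in NS1, and at 16.9 ± 1.65 CPM in EP300 KD2 and 131.4 ± 8.67 CPM in NS2 (log2 -2.77 ± 0.06 and -2.96 ± 0.06, adjusted p = 2e-18 and 2.5e-18). DHRS9, a retinol dehydrogenase, stood at 5.07 ± 0.12 CPM in EP300 KD1 and 25.1 ± 0.217 CPM in NS1, and at 2.21 ± 0.326 CPM in EP300 KD2 and 20.4 ± 0.554 CPM in NS2 (log2 -2.31 ± 0.07 and -3.21 ± 0.08, adjusted p = 5.6e-16 and 4.3e-17). LRAT, which esterifies retinol, fell by log2 changes of -1.05 ± 0.04 and -1.23 ± 0.04, and the receptor gene RARG by -1.08 ± 0.03 and -0.55 ± 0.03, for EP300 KD1 and EP300 KD2 in that order.

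SOX9, a transcription factor of luminal progenitors in mouse mammary gland, fell with both hairpins. Its levels were 133.4, 132.5 and 131.5 CPM in EP300 KD1, against 206.0, 201.9 and 207.6 CPM in NS1. They were 115.7, 119.5 and 117.6 CPM in EP300 KD2, against 192.8, 189.4 and 185.2 CPM in NS2. All 6 knockdown libraries lay below all 6 control libraries. SOX9 fell to 64.6% ± 0.458 of NS1 in EP300 KD1 (log2 -0.63 ± 0.02, adjusted p = 3.5e-14) and to 62.2% ± 1.01 of NS2 in EP300 KD2 (log2 -0.69 ± 0.02, adjusted p = 1.7e-14). The difference between the hairpins was -0.05 ± 0.03 (adjusted p = 0.21, 95% interval -0.13 to 0.02), and NS2 stood 0.12 below NS1 on the log2 scale (-0.12 ± 0.02, adjusted p = 0.001). With both controls pooled, that difference was -0.17 (adjusted p = 9.5e-06).

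SOX4, a transcription factor linked to epithelial plasticity, barely moved. Its levels were 44.9, 44.2 and 43.8 CPM in EP300 KD1, against 42.7, 39.9 and 44.7 CPM in NS1, where the groups overlapped (log2 0.06 ± 0.05, adjusted p = 0.29). They were 39.8, 40.8 and 40.2 CPM in EP300 KD2, against 39.1, 34.1 and 38.2 CPM in NS2, where the groups did not overlap and the gene rose (log2 0.12 ± 0.05, adjusted p = 0.044). That call was lost with both controls pooled (log2 0.02, adjusted p = 0.73), and on leaving out NS2 replicate 2, the lowest library (log2 0.06, adjusted p = 0.3), EP300 KD1 replicate 1 or 3, any EP300 KD2 replicate or NS1 replicate 1 (0.11 to 0.13). NS2 stood 0.20 below NS1 on the log2 scale (-0.20 ± 0.05, adjusted p = 0.0041), a larger size than either knockdown change. Between the hairpins the difference was 0.06 ± 0.07 (adjusted p = 0.49, 95% interval -0.08 to 0.20), and -0.14 with both controls pooled (adjusted p = 0.016).

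Of the other 7 tested SOX genes, 2 rose and 2 fell with EP300 KD1 (median log2 change 0.05), and none rose and 3 fell with EP300 KD2 (median -0.09). The shares over all accessions were 32.6% higher and 32.3% lower with EP300 KD1, and 27.9% and 29.9% with EP300 KD2. SOX13 fell with both, to 29.4 ± 1.06 CPM in EP300 KD1 against 44.4 ± 0.765 CPM in NS1 and to 25.5 ± 0.646 CPM in EP300 KD2 against 44.9 ± 1.18 CPM in NS2 (log2 -0.59 ± 0.04 and -0.82 ± 0.04, adjusted p = 4.2e-11 and 5.4e-13). SOX12, of the same SOXC group as SOX4, rose to 41.2 ± 2.22 CPM in EP300 KD1 against 26.2 ± 1.2 CPM in NS1 (log2 0.65 ± 0.06, adjusted p = 6.8e-09) and stood at 28.3 ± 2.8 CPM in EP300 KD2 and 29.5 ± 0.551 CPM in NS2 (log2 -0.06 ± 0.06, adjusted p = 0.41). SOX2, the pluripotency factor, had 5 counts in all 12 libraries.

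BMI1, a core subunit of Polycomb repressive complex 1, had 12 to 30 counts per library. Its levels were 0.898, 0.631 and 0.668 CPM in EP300 KD1, against 0.788, 0.369 and 0.552 CPM in NS1. They were 0.523, 0.824 and 0.71 CPM in EP300 KD2, against 0.6, 0.391 and 0.522 CPM in NS2. The groups overlapped in both pairs, with log2 changes of 0.35 ± 0.27 (adjusted p = 0.27) and 0.43 ± 0.28 (adjusted p = 0.21). Between the hairpins the difference had a 95% interval of -0.74 to 0.90. BMI1 overlaps the readthrough gene COMMD3-BMI1, which had no accession here, and its upstream neighbour COMMD3 had 15215 counts over the 12 libraries, against 261 for BMI1. The low BMI1 count is an uncertain measure of the gene, and why it was low was not tested.

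Of 24 tested Polycomb genes besides BMI1, 8 rose and 8 fell with EP300 KD1 (median log2 change -0.07), and 8 rose and 5 fell with EP300 KD2 (median 0.05). The shares over all accessions were 32.6% higher and 32.3% lower with EP300 KD1, and 27.9% and 29.9% with EP300 KD2. JARID2, a cofactor of Polycomb repressive complex 2, rose to 91.2 ± 1.77 CPM in EP300 KD1 against 46.8 ± 1.08 CPM in NS1, and to 70.1 ± 1.41 CPM in EP300 KD2 against 51.5 ± 1.28 CPM in NS2 (log2 0.96 ± 0.03 and 0.44 ± 0.03, adjusted p = 1.9e-15 and 3.5e-10). PHC2, of complex 1, and PHF19, of complex 2, rose with both as well (log2 0.79 ± 0.03 and 0.09 ± 0.03 for PHC2, 0.29 ± 0.04 and 0.67 ± 0.04 for PHF19). EZH2, the histone methyltransferase of complex 2, fell to 46.7 ± 0.688 CPM in EP300 KD1 against 66.5 ± 2.5 CPM in NS1 (log2 -0.51 ± 0.03, adjusted p = 5.9e-11), and stood at 69.1 ± 0.811 CPM in EP300 KD2 and 69.1 ± 0.879 CPM in NS2 (log2 0.00 ± 0.03, adjusted p = 1). PCGF2, the closest paralogue of BMI1, ranged from 16 to 274 counts between libraries, with log2 changes of -0.12 ± 0.57 and 0.66 ± 0.61 that missed the threshold (adjusted p = 0.86 and 0.38). CDKN2A, the classical target repressed by BMI1, had no count in any of its 3 accessions, and CDKN2B had no count either. Counts of symbols with several accessions are uncertain here, and why these genes had no count was not tested.

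PROM1, which encodes the surface protein CD133, had 0 to 3 counts per library and 9 in all, so it was not tested and no fold change is given. Its relative PROM2 was well expressed and fell with both hairpins, to 127.9 ± 2.46 CPM in EP300 KD1 against 410.2 ± 3.99 CPM in NS1 and to 147.6 ± 3.8 CPM in EP300 KD2 against 382.6 ± 7.95 CPM in NS2 (log2 -1.68 ± 0.03 and -1.37 ± 0.03, adjusted p = 5.3e-20 and 1.1e-18).

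**Figure D3:**
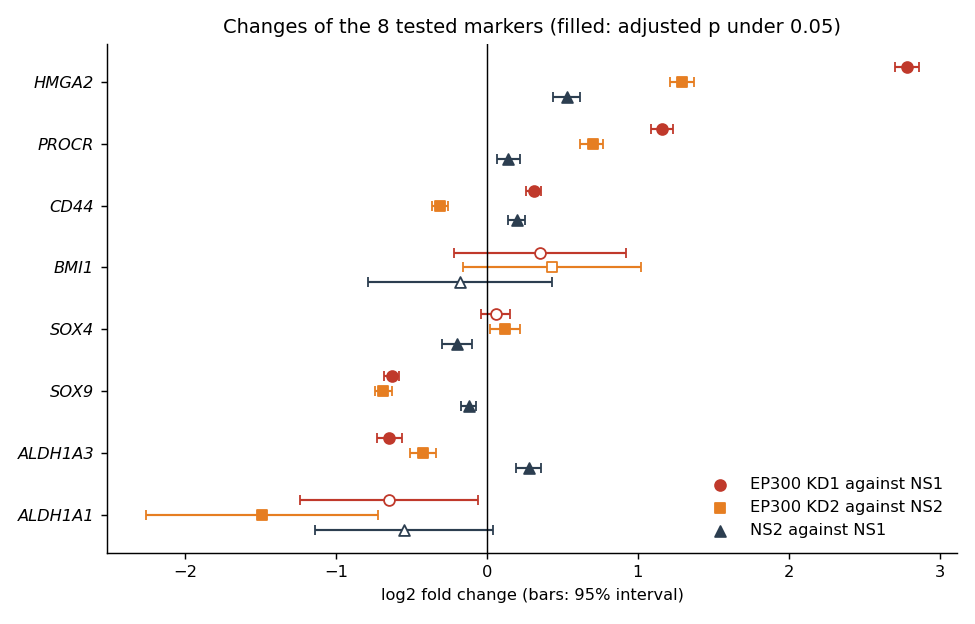
Log2 fold change of the 8 tested markers for EP300 KD1 against NS1 (circles), EP300 KD2 against NS2 (squares) and NS2 against NS1 (triangles). Bars are 95% intervals and filled symbols passed the test at 0.05. HMGA2 reached 2.78 and 1.29, CD44 lay on opposite sides of 0, and BMI1 and ALDH1A1 had the widest intervals.

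The 4 markers whose response differed between the hairpins (50.8% of all accessions passed that test, 21.6% higher and 29.2% lower) were ALDH1A3, with a higher value for EP300 KD2, and HMGA2, CD44 and PROCR, with a lower one. Over all accessions that split became 3780 higher and 3117 lower with library totals alone, against 2903 and 3915 with TMM.

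The control lines themselves differed in 6 of the 8 tested markers, against 27.5% of all accessions (14.2% higher and 13.4% lower). In NS2 relative to NS1, HMGA2, ALDH1A3, CD44 and PROCR were higher and SOX4 and SOX9 lower, with log2 differences from -0.20 to 0.53. For HMGA2, PROCR, SOX9 and ALDH1A3 the change with either hairpin was larger than this difference. For CD44 the difference between controls (0.20 ± 0.02) was smaller than either hairpin's change (0.31 ± 0.02 and -0.31 ± 0.02), and for SOX4 it exceeded both.

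Of 24 tested genes on a list of other mammary stem and progenitor markers, 8 rose and 13 fell with EP300 KD1 (median log2 change -0.22), and 5 rose and 17 fell with EP300 KD2 (median -0.62). Of these, 4 rose with both, 12 fell with both and 3 moved in opposite directions. Over all accessions, 32.6% were higher and 32.3% lower with EP300 KD1, and 27.9% and 29.9% with EP300 KD2. With both hairpins, 32.6% of all accessions passed in the same direction and 11.2% in opposite directions. The 4 genes of this list that rose with both hairpins were ITGB3 (log2 3.269 and 1.293), NES (1.925 and 2.088), BCL11A (1.403 and 0.784) and ITGB1 (0.365 and 0.176). ABCG2, the drug transporter of side-population cells, stood at 3.61 ± 0.247 CPM in EP300 KD1 and 19.2 ± 1.09 CPM in NS1, and at 5.7 ± 0.43 CPM in EP300 KD2 and 17.1 ± 0.756 CPM in NS2 (log2 -2.41 ± 0.08 and -1.58 ± 0.07, adjusted p = 2.7e-15 and 7.8e-13). KLF4, a pluripotency and epithelial differentiation factor, fell to 23.8 ± 1.63 CPM in EP300 KD1 against 53.1 ± 1.59 CPM in NS1 and to 23.6 ± 0.561 CPM in EP300 KD2 against 57 ± 0.0131 CPM in NS2 (log2 -1.15 ± 0.04 and -1.27 ± 0.04, adjusted p = 1.3e-14 and 3.2e-15). ITGA6, the integrin CD49f used to sort basal mammary cells, behaved like CD44 in sign, with 1113.3 ± 14.4 CPM in EP300 KD1 and 1043.2 ± 10.1 CPM in NS1 (log2 0.09 ± 0.02, adjusted p = 0.00026), and 741.5 ± 6.42 CPM in EP300 KD2 and 1268.5 ± 7.31 CPM in NS2 (log2 -0.77 ± 0.02, adjusted p = 6e-17).

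**Figure D4:**
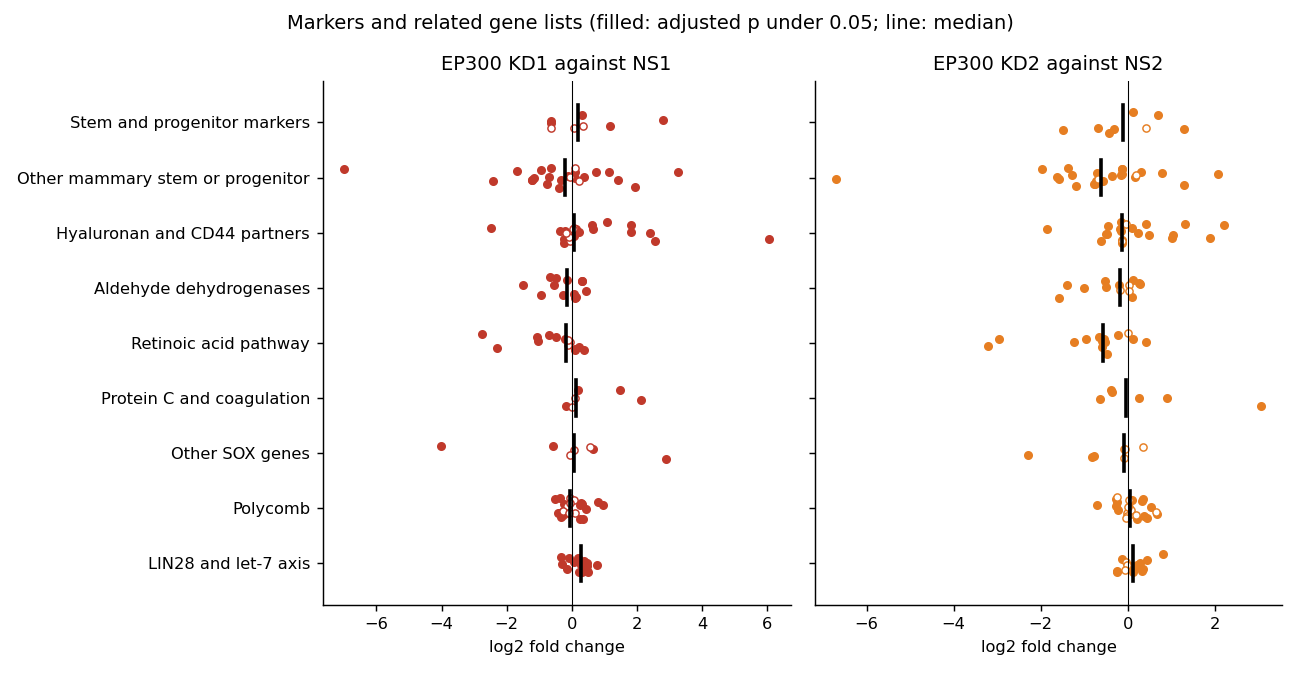
Log2 fold change of every tested gene of the 10 markers and of 8 related lists, for EP300 KD1 against NS1 (left) and EP300 KD2 against NS2 (right). Filled points passed the test at 0.05 and black lines are medians, which were 0.18 and -0.10 for the markers and -0.22 and -0.62 for the other mammary stem or progenitor genes. The far-left point of that second list is TSPAN8, whose position is set by the fit because its knockdown libraries held at most 1 count.

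The basal keratins KRT17 and KRT5 and the epithelial cadherin CDH1 fell with both hairpins. The log2 changes with EP300 KD1 and EP300 KD2 were -1.24 ± 0.03 and -1.99 ± 0.03 for KRT17, -0.71 ± 0.02 and -1.26 ± 0.02 for KRT5, and -0.86 ± 0.02 and -1.06 ± 0.02 for CDH1. Of 8 fibroblast markers 4 were tested, and their list summed to 67.6 to 71.2 CPM in EP300 KD1 against 46.5 to 48.4 CPM in NS1, and to 25.9 to 28.4 CPM in EP300 KD2 against 27.9 to 30.2 CPM in NS2. COL1A2, COL3A1 and LUM had no count. DCN, which encodes decorin, rose with both (log2 2.57 ± 0.06 and 1.25 ± 0.08), as did COL1A1 (0.86 ± 0.08 and 0.30 ± 0.09), and FBLN1 fell with both (-1.95 ± 0.06 and -1.41 ± 0.07). Of 8 leukocyte markers 2 were tested, CD68, which rose with both (log2 1.67 ± 0.07 and 0.37 ± 0.07), and CD14, which fell with both (-0.65 ± 0.06 and -1.62 ± 0.07), and AIF1 and TYROBP had no count. CD14 is also on the list of other mammary stem and progenitor markers, as are EPCAM, TP63 and ITGA6 of the mammary epithelial markers, so these lists are not independent of each other. The leukocyte list summed to 67.2 to 74.2 CPM in EP300 KD1 against 51.8 to 63 CPM in NS1, and to 37.8 to 40.1 CPM in EP300 KD2 against 65.3 to 67.2 CPM in NS2. Of 8 endothelial markers 4 were tested. PECAM1 fell with both (log2 -1.60 ± 0.07 and -2.84 ± 0.07), and TEK rose with both (4.08 ± 0.24 and 1.89 ± 0.30). KDR and ESAM rose with EP300 KD1 (log2 0.71 and 1.55) and missed the threshold with EP300 KD2 (0.323 and 0.637). The endothelial list summed to 13.9 to 16.3 CPM in EP300 KD1 against 29 to 33.1 CPM in NS1, and to 6.54 to 7.49 CPM in EP300 KD2 against 38.8 to 40.8 CPM in NS2, and CLDN5 had no count. Most of that sum was PECAM1 alone, at 9.67 CPM in EP300 KD1, 29.3 CPM in NS1, 5.38 CPM in EP300 KD2 and 38.7 CPM in NS2. The part of these lists in the markers' changes was not tested.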

How the data were processed

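Per the labels' protocols, Trizol-isolated RNA of MCF10AT cells was sequenced from stranded TruSeq libraries. Alignment was to hg38 with HISAT2 2.1.0 and counting used featureCounts, per the submitters' processing notes. Not given in the sources used here were the annotation, strand setting and handling of multi-mapping reads. The authors' deposited values are raw counts for 29094 RefSeq accessions, without normalization by the authors. Symbols came from RefSeq for 28134 accessions and GENCODE v29 for 486. For 2300 symbols with several accessions, counts are residual (0.934% of all).

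Accessions were filtered (filterByExpr), scaled by TMM and tested with edgeR 4.0.16 (R 4.3.3), as 1 quasi-likelihood fit over 12 libraries, with Benjamini-Hochberg adjustment over all 13424. The procedure was tested on simulated data for EP300 KD1 and EP300 KD2. It called 86% and 92% of 2-fold changes in the right direction, but 18% and 32% of 1.1-fold changes. Of unchanged accessions it called 0.0386% in either. All groups shared 1 baseline and libraries were independent there, so differences between lines and technical replication were not covered. Replicates differed beyond sampling noise (chi-square over its degrees of freedom from 1.86 to 4.54) and were kept apart. Whether they were separate cultures is not in the labels, so p-values describe the spread of these libraries only, and it may be technical. Floors of 3 counts cover counting error only. DESeq2 1.42.0, limma-voom (limma 3.58.1) and other scalings, filters, controls and left-out libraries were alternatives. The ratio was tested by exact permutation (scipy 1.17.1).

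The markers and gene lists were chosen with earlier results of these data known. All markers are named. From each list, up to 4 tested genes with a mean of at least 1 CPM and the smallest p in either EP300 comparison are named, plus CD24, ESRP1, ESRP2, SOX2, ALDH1A2, LIN28A, HMGA1, PCGF2 and CDKN2A as partners or paralogues. COMMD3, RPSAP52, MIR100HG, MIRLET7BHG, SOX9-AS1 and TSPAN8 were chosen after their values were seen, as were ITGB3, NES, BCL11A, ITGB1, KRT8, KDR, ESAM and CDKN2B.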

Additional observations from a re-analysis of the deposited data

Results flagged for a closer look

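The responses to the 2 hairpins differed, by the test of the difference itself (edgeR, adjusted p under 0.05), for 4 of the markers. The log2 difference, EP300 KD2 against NS2 minus EP300 KD1 against NS1, was -1.49 for HMGA2, -0.62 for CD44, -0.46 for PROCR and 0.22 for ALDH1A3. The CD44 difference came from opposite signs (-0.31 with EP300 KD2 and 0.31 with EP300 KD1), the HMGA2 and PROCR differences from smaller rises with EP300 KD2, and the ALDH1A3 difference from a smaller fall with EP300 KD2.

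Over all accessions 50.8% differed in this way, so such a difference was common. The calls over all accessions were 2903 higher and 3915 lower, and this split became 3780 higher and 3117 lower with library totals alone. The same log2 difference was -0.18 for EP300 itself. The related genes given next are those that passed the test of this difference. It was not passed by KLF4 (-0.12, adjusted p = 0.11), ESRP2 (0.08, adjusted p = 0.09), ALDH3A2 (-0.05, adjusted p = 0.22), ALDH3B2 (-0.09, adjusted p = 0.64), RARRES1 (-0.18, adjusted p = 0.083), F3 (0.09, adjusted p = 0.098), HMGA1 (0.12, adjusted p = 0.061) or PCGF2 (0.78, adjusted p = 0.46). Among the other mammary stem and progenitor genes and the hyaluronan genes, it was 0.31 for PROM2, -0.87 for ITGA6, 0.84 for ABCG2, 1.41 for CD24, -0.75 for VCAN, -4.17 for TNFAIP6, -0.67 for CEMIP2, -0.41 for RDX and -0.10 for ESRP1. Among the aldehyde dehydrogenase, retinoic acid and coagulation genes, it was -0.43 for ALDH3A1, -0.45 for ALDH3B1, -0.91 for DHRS9, 0.53 for RARG, -0.18 for LRAT, 0.95 for PROS1, -0.34 for TFPI and -0.22 for F2RL1. Among the SOX and Polycomb genes, it was -0.23 for SOX13, -0.71 for SOX12, -0.52 for JARID2, -0.70 for PHC2, 0.51 for EZH2 and 0.39 for PHF19. For SOX9-AS1 and COMMD3, neighbours of SOX9 and BMI1 that are on neither list, it was -0.77 and -0.28. Among genes of the LIN28 and let-7 axis, it was -0.61 for TUT4, -0.26 for IGF2BP2, -0.54 for IGF2BP3 and -0.18 for AGO1. For MIR100HG, a let-7a host transcript that is not on that list, it was -1.06. Among the epithelial and other cell type markers, it was -0.75 for KRT17, -0.55 for KRT5, -0.20 for CDH1, -1.32 for DCN, 0.54 for FBLN1, -0.56 for COL1A1, -0.97 for CD14, -1.30 for CD68, -1.24 for PECAM1 and -2.19 for TEK.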

How the results depend on the processing

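For the 8 tested markers, 520 fold changes and differences were recomputed under the alternatives: 493 kept their direction and side of the threshold, 8 lost the call, 11 gained one and 8 changed sign. All sign changes were in differences between the hairpins that did not pass the test with TMM and matched controls: SOX4 at -0.14 (adjusted p = 0.016) and BMI1 at -0.10 with both controls pooled, SOX9 at 0.01 with library totals alone and 0.00 with no filter on low counts, and BMI1 between -0.19 and 0.28 when single libraries were left out. With both controls pooled, 7 markers differed between the hairpins in place of 4, a setting that compares EP300 KD2 with EP300 KD1 directly. The calls over all 13424 accessions grew as well in that setting, to 3296 higher and 4714 lower, against 2903 and 3915 with matched controls. The 8 lost calls were all SOX4 with EP300 KD2, whose adjusted p ranged from 0.00052 to 0.73, and SOX4 passed with EP300 KD1 against pooled controls (log2 0.16, adjusted p = 0.0023). The call of ALDH1A1 with EP300 KD1 was gained with no filter (adjusted p = 0.033), with only the groups compared (0.031), and without EP300 KD1 replicate 2 (log2 -0.85), NS1 replicate 3 (-0.81) or any NS2 replicate (-0.65), its adjusted p ranged from 0.019 to 0.21, and its value was -0.37 with both controls pooled. Left-out libraries gave 5 to 6 markers called with EP300 KD1, 6 to 7 with EP300 KD2, and 4 between the hairpins. HMGA2 ranged from 2.52 to 2.81 with EP300 KD1 and from 1.27 to 1.55 with EP300 KD2 over the alternatives, and CD44 from 0.21 to 0.33 and from -0.33 to -0.22. The log2 ratio of mean CD44 to CD24 ratios ranged from 1.43 to 1.89 and from -0.78 to -0.37 when single libraries were left out.

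No pairing by replicate number was detected, as same-numbered knockdown and control libraries had correlations of deviations from -0.04 to 0.022. Whether same-numbered libraries were prepared together cannot be told from these values. A fit with the replicate number as a block called 8748 accessions with EP300 KD1 and 7802 with EP300 KD2, against 8711 and 7762 without it. The block added 1 marker call, ALDH1A1 with EP300 KD1 (log2 -0.68, adjusted p = 0.019), and changed no other. The precision of ALDH1A1, BMI1, CD24, PROM1 and LIN28B was limited by their counts, at most 40 in a library, and why these counts were low was not tested.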

Other observations

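These genes were chosen after their values were seen. TSPAN8, a tetraspanin on the list of mammary stem markers, was nearly lost in the knockdown libraries, with 0, 1 and 0 counts in EP300 KD1 against 50, 65 and 78 in NS1, and 0, 0 and 0 counts in EP300 KD2 against 13, 10 and 13 in NS2. It fell with both hairpins by edgeR (adjusted p = 4.9e-10 and 1.6e-06), and no fold is given because the knockdown counts were at the floor. The control lines differed too, with 0.37 ± 0.0604 CPM in NS2 and 1.73 ± 0.269 CPM in NS1.

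MIR100HG, the host transcript of a let-7a gene on chromosome 11, moved with the signs of CD44. It rose to 98.2, 104.9 and 96.7 CPM in EP300 KD1 against 58.6, 63 and 62 CPM in NS1 (log2 0.71 ± 0.04, adjusted p = 1.1e-11). It fell to 64.2, 69.5 and 69.6 CPM in EP300 KD2 against 84.7, 89.8 and 85.1 CPM in NS2 (log2 -0.36 ± 0.04, adjusted p = 3.2e-07). MIRLET7BHG, the host transcript of let-7b, was low with log2 changes of -0.57 ± 0.31 and -0.39 ± 0.36 that missed the threshold (adjusted p = 0.12 and 0.39). Host transcript levels do not measure mature let-7.

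SOX9-AS1, a long non-coding RNA beside SOX9, fell with both hairpins, as SOX9 did, to 1.11 ± 0.184 CPM in EP300 KD1 against 1.55 ± 0.331 CPM in NS1 (log2 -0.48 ± 0.19, adjusted p = 0.033) and to 0.659 ± 0.0244 CPM in EP300 KD2 against 1.57 ± 0.286 CPM in NS2 (log2 -1.24 ± 0.20, adjusted p = 3.3e-05).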
